A study of Mus musculus with 6 samples.

Results

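Heparan sulfate proteoglycans are proteins that carry long sulfated sugar chains, and their core protein genes were followed here through the response of mammary epithelial cells to TGFβ. The 10 genes are the syndecans Sdc1, Sdc2, Sdc3 and Sdc4, the glypicans Gpc1, Gpc3, Gpc4 and Gpc6, perlecan (Hspg2) and agrin (Agrn). They were taken by gene symbol from a table of 21240 genes, and all 10 were found. Of these, 8 passed the filter on low counts and were tested among 11080 genes, and Gpc3 and Gpc4 did not pass. Each of the 8 had at least 2 CPM (counts scaled to a common library size by TMM factors) in both vehicle libraries. None therefore entered the test only through TGFβ. The filter itself used CPM without TMM factors.

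The cells are NMuMG, a line from normal mouse mammary gland, and each of the 3 groups holds 2 libraries labelled as biological replicates. All cells were first kept for 6 h without serum and, by the study's methods, without insulin. The vehicle group (veh) then received acid carrier with albumin for 2 h, the TGFb2h group received 5 ng/ml TGFβ1 for 2 h, and the TGFb12h group received the same dose for 12 h. Total RNA was sequenced with a strand-specific kit, and the libraries held between 14705886 and 23786993 counts. The vehicle was collected at 2 h alone, so in the 12 h comparison TGFβ and a longer time without serum and insulin cannot be told apart. Both TGFβ groups are compared with the same vehicle libraries, and the 2 comparisons are therefore given side by side. In a bulk sample, fewer cells that express a gene and less RNA per cell cannot be told apart.

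Defining epithelial genes were present in every library. Cdh1, the epithelial cadherin, lay between 337 and 608 CPM, and the keratin gene Krt8 between 1015 and 3363 CPM. Other markers on the epithelial list were at or near 0, with Epcam at most 0.697 CPM, Cldn7 at most 0.353 CPM and Cldn3 at most 0.0504 CPM. Of the 8 epithelial markers, 5 exceeded 1 CPM in every library, and their summed level was 4958 to 5778 CPM in vehicle, 6440 to 6474 CPM at 2 h and 10321 to 10368 CPM at 12 h. Members of that sum went opposite ways: the keratin gene Krt18 was at 2379.7 and 1916 CPM in vehicle and at 6126 and 6243 CPM at 12 h, while the keratin gene Krt19 was at 1845 and 1664 CPM in vehicle and at 419.9 and 489 CPM at 12 h. Summed markers of leukocytes and of adipocytes reached at most 0.446 and 0.303 CPM. The 4 endothelial markers summed to between 0.176 and 1.95 CPM, with Pecam1 at most 0.103 CPM and Cdh5 highest at 12 h, at 1.70 and 1.85 CPM. The 5 basal or myoepithelial markers summed to between 2.36 and 11.5 CPM, nearly all of it Krt14. The part of these shifts in the results was not tested.

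A proteoglycan starts as a core protein to which a linker sugar and then a heparan sulfate chain are attached in the Golgi, and the chain is trimmed and sulfated in patterns that decide which proteins it binds. Syndecans cross the plasma membrane, glypicans are held on it by a lipid anchor, and perlecan and agrin are secreted into the basement membrane on which epithelial cells rest. Their chains hold growth factors such as FGFs and serve as co-receptors for them, and syndecan-1 is the typical syndecan of mammary epithelium and was cloned from these same cells.

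The 250 bases in front of the start site are shown for 4 genes. By edgeR, Sdc3 and Hspg2 were called higher after 2 h of TGFβ. Sdc1 and Sdc4 were not called at that time, Sdc1 narrowly so (log2FC 0.48, edgeR adjusted p = 0.0598). Sequences are from RefSeq (build GRCm38.p6), are written 5′ to 3′ on the strand of the gene, and end 1 base before the start. Capitals mark CAGAC, the core of the SMAD box bound by the transcription factors of the TGFβ pathway, or GTCTG, the same letters on the opposite strand. Sdc3 lies at chr4:130792287-130792536 on the plus strand, Hspg2 at chr4:137468553-137468802 on the plus strand, Sdc1 at chr12:8771146-8771395 on the plus strand and Sdc4 at chr2:164443189-164443438 on the minus strand.
Sdc3: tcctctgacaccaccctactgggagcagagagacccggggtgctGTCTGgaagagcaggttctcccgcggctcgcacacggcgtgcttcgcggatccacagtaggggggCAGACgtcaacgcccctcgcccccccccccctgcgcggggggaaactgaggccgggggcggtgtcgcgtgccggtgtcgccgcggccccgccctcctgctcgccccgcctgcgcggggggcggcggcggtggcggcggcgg
Hspg2: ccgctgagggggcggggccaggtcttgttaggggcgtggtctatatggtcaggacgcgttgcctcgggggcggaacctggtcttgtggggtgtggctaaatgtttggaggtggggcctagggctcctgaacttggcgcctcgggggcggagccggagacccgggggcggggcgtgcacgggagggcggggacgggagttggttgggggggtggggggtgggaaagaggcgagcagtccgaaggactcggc
Sdc1: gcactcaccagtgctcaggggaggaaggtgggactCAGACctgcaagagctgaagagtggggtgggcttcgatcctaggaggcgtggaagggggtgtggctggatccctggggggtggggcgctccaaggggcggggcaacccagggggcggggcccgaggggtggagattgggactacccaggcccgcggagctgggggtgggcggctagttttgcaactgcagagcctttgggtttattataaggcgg
Sdc4: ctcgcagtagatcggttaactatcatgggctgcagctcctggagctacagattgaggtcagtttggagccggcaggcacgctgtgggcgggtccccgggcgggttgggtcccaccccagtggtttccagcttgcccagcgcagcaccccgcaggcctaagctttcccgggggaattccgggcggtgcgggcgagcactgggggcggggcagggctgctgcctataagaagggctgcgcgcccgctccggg

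The Sdc3 window held CAGAC at 206 and 141 bases before the start, and the Sdc1 window held it at 215 bases before the start. The windows of Hspg2 and Sdc4 held none. In all, RefSeq promoters were matched for 7 of the 10 genes, and for none of Sdc2, Gpc1 and Gpc6. This gave 8 windows, because Agrn has a pair of start sites, and 2 of the 8 held CAGAC on either strand. Among 32851 promoters of the same length, 42.2% held it. Neither the AP-1 motif TGANTCA (6.75% of all promoters) nor the E-box CAGGTG bound by Snail and Zeb proteins (17.2%) was found in any of the 8 windows. The GC box GGGCGG was in all 8, against 32.7% of all promoters. No CAGAC match shared bases with a GC box, and a match in so short a window describes the sequence and nothing else.

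**Figure D1:**
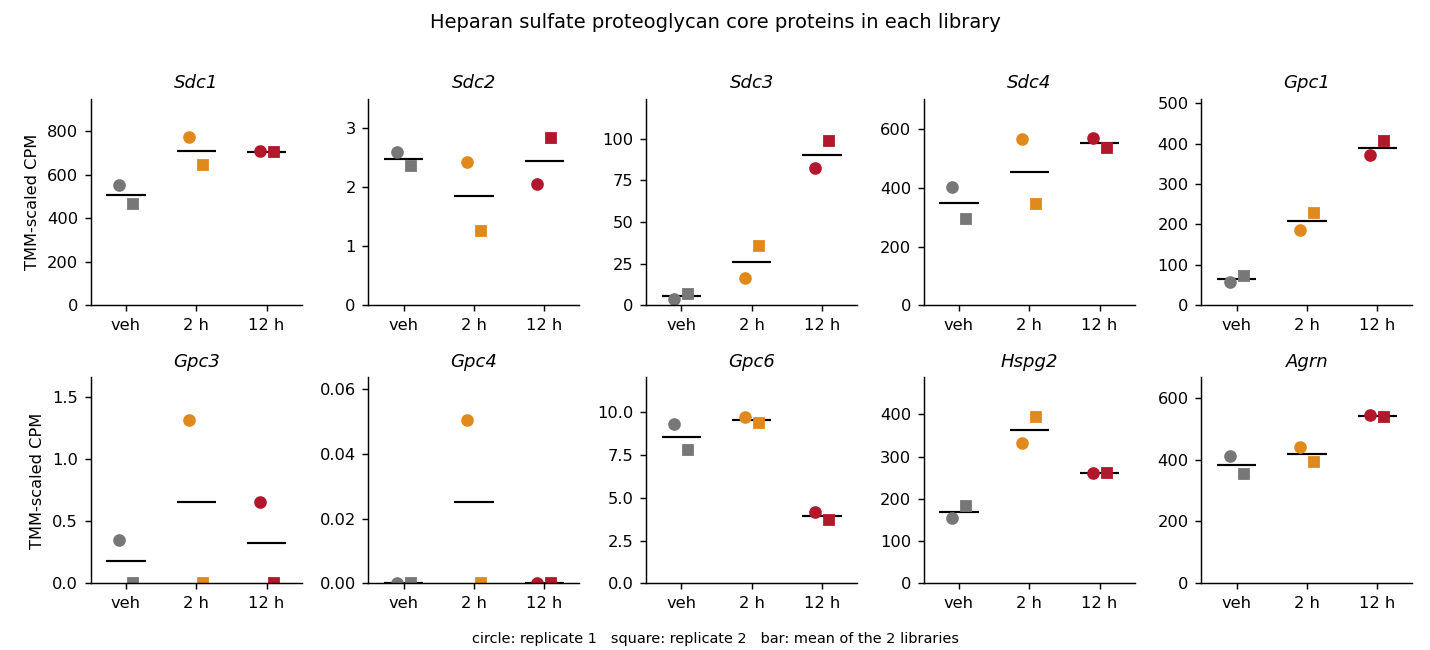
Level of the 10 core protein genes in each of the 6 libraries, in TMM-scaled CPM (vertical axes, each starting at 0 with its own range) for vehicle, TGFβ 2 h and TGFβ 12 h; circles are replicate 1, squares replicate 2 and bars the mean of both. Sdc3 climbed from 3.71 and 7.002 to 82.2 and 98.4, Gpc1 from 57.5 and 71.7 to 373 and 408, and Gpc6 ended at 4.14 and 3.69.

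Gpc1, Sdc3 and Hspg2 were called higher by edgeR after 2 h of TGFβ, and none of the tested genes was called lower at that time. By 12 h Gpc1 and Sdc3 had moved further from the vehicle level, Hspg2 had dropped back in part, and Gpc6 was lower. Agrn and Sdc1 were also called higher. The log2FC of Sdc1 was nearly the same at both times, 0.48 at 2 h and 0.47 at 12 h. At 2 h, 3 of the 8 tested genes were called higher and 0 lower by edgeR's quasi-likelihood test at an adjusted p under 0.05, where 15.2% of all tested genes were called, 9.91% higher and 5.25% lower. At 12 h, 5 were called higher and 1 lower, where 43.3% of all tested genes were called, 21.8% higher and 21.5% lower. All 3 genes called at 2 h, and Sdc3, Gpc1 and Gpc6 at 12 h, also had an absolute log2FC above 1, which 6.25% and 19.6% of all tested genes had together with a call. The median log2FC of the 8 genes was 0.43 at 2 h and 0.57 at 12 h, beside −0.01 and 0.02 over all tested genes. The count at 12 h was 3 without TGFb12h replicate 1 or replicate 2, where 26.4% and 25.7% of all tested genes were called, and 4 without vehicle replicate 2, where 30.5% were.

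Among the syndecans, Sdc3 changed most. Syndecan-3 is best known from nerve and developing cartilage, and it has the longest extracellular part of the family. Its level was 3.71 and 7.002 CPM in vehicle, 16.5 and 35.7 CPM at 2 h, and 82.2 and 98.4 CPM at 12 h. The 3 groups did not overlap, although in the vehicle group and in the 2 h group one library stood well above the other. The log2FC was 2.29 (SE 0.434) at 2 h, with an edgeR adjusted p of 0.0169, and 4.08 (SE 0.447, 16.9-fold) at 12 h, with an edgeR adjusted p of 0.000632. From 2 h to 12 h it rose by a further log2FC of 1.79 (SE 0.389, edgeR adjusted p = 0.0137). The 2 h call did not hold without vehicle replicate 1 (log2FC 1.89, edgeR adjusted p = 0.0938), without TGFb12h replicate 1 (0.0567) or replicate 2 (0.0571), or with the vehicle and 2 h groups fitted alone (0.0594). Leaving out TGFb2h replicate 2, the higher of its group, lowered the 2 h log2FC to 1.63, and the 12 h call held in every setting tried.

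Sdc1 and Sdc4, the abundant syndecans of these cells, changed less. Syndecan-1 binds growth factors and collagen at the basal and lateral face of epithelial cells. Its level was 551 and 465 CPM in vehicle, 773 and 646 CPM at 2 h, and 707 and 703 CPM at 12 h. Every TGFβ library lay above both vehicle libraries, and the 2 h and 12 h libraries overlapped. The log2FC was 0.48 (SE 0.135, edgeR adjusted p = 0.0598) at 2 h and 0.47 (SE 0.135, edgeR adjusted p = 0.0292) at 12 h, with a difference between the times of −0.01 (SE 0.134). The nearly equal changes therefore stood on either side of the threshold: the settings in which the 2 h change passed include DESeq2 (adjusted p = 0.0136) and leaving out TGFb2h replicate 2 (edgeR adjusted p = 0.0331), and the 12 h change did not pass with total counts in place of TMM (0.0614) or without vehicle replicate 2 (0.166), TGFb12h replicate 1 (0.144) or TGFb12h replicate 2 (0.139).

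Syndecan-4, a partner of integrins in focal adhesions, was at 403 and 293 CPM in vehicle, 567 and 344 CPM at 2 h, and 572 and 537 CPM at 12 h. The 2 h libraries overlapped those of both other groups, while both 12 h libraries lay above both vehicle libraries. The log2FC was 0.39 (SE 0.253, edgeR adjusted p = 0.357) at 2 h and 0.67 (SE 0.254, edgeR adjusted p = 0.0724) at 12 h, so that neither was called in this fit, which has no replicate block. The settings in which the 12 h change passed include DESeq2 (adjusted p = 0.0242), a fit with only vehicle and 12 h (0.0104), and leaving out TGFb2h replicate 1 (0.0112) or replicate 2 (0.00938).

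Sdc2, the syndecan of fibroblasts and other mesenchymal cells, was measured from only 25 to 55 counts a library. Its level was 2.59 and 2.36 CPM in vehicle, 2.43 and 1.26 CPM at 2 h, and 2.05 and 2.82 CPM at 12 h. All groups overlapped. With a log2FC of −0.42 (SE 0.381) at 2 h and −0.03 (SE 0.372) at 12 h, the errors are close to the size of the Sdc1 change, and a change of that size could not be told from 0 in these libraries.

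**Figure D2:**
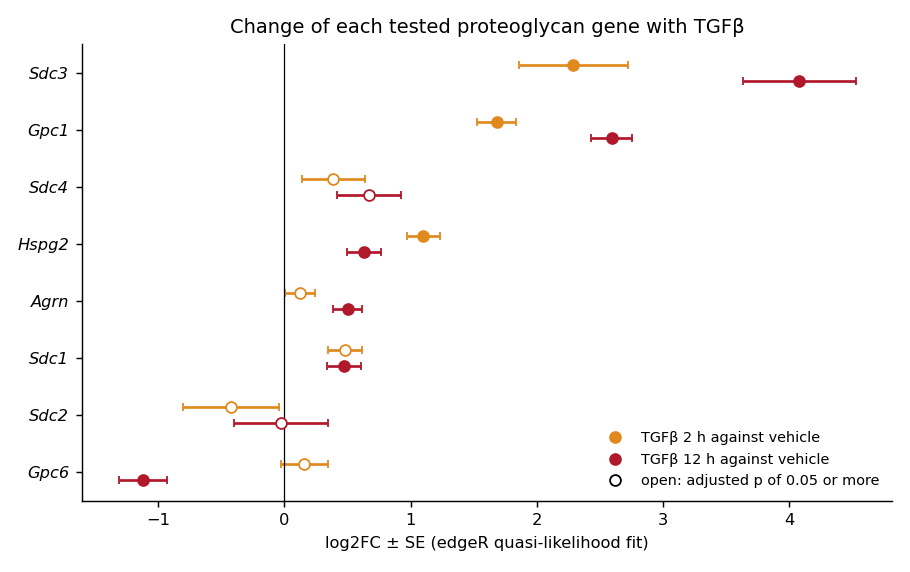
log2FC with its standard error for the 8 tested genes (horizontal axis), at 2 h (orange) and 12 h (red) against vehicle; filled points have an edgeR adjusted p under 0.05 and open points do not. Sdc3 and Gpc1 lie farthest to the right at both times, Hspg2 is nearer to 0 at 12 h than at 2 h, and Gpc6 is the one filled point left of 0.

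Among the glypicans, Gpc1 rose and Gpc6 fell. Glypican-1 is widely expressed in adult tissues and binds FGFs and other heparin-binding factors. It was at 57.5 and 71.7 CPM in vehicle, 187 and 228 CPM at 2 h, and 373 and 408 CPM at 12 h. No library of one group overlapped another group, and the replicates lay close together. The log2FC was 1.68 (SE 0.156, 3.21-fold, edgeR adjusted p = 0.00126) at 2 h and 2.59 (SE 0.161, 6.04-fold, edgeR adjusted p = 8.45e-05) at 12 h. The step from 2 h to 12 h was 0.91 (SE 0.152, edgeR adjusted p = 0.00521). Both changes against vehicle were called in every setting tried.

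Glypican-6, a close relative of glypican-4 that acts in skeletal growth, went the other way and later. Gpc6 was at 9.29 and 7.77 CPM in vehicle, 9.71 and 9.325 CPM at 2 h, and 4.14 and 3.69 CPM at 12 h. Both 12 h libraries lay below all 4 others, and the 2 h libraries lay just above the vehicle ones. The log2FC was 0.16 (SE 0.186, edgeR adjusted p = 0.623) at 2 h and −1.12 (SE 0.193, 2.18-fold lower, edgeR adjusted p = 0.00405) at 12 h. From 2 h to 12 h it fell by 1.28 on the log2 scale (SE 0.192, edgeR adjusted p = 0.00358), and its 12 h calls held in every setting tried. The counts behind these values run from 72 to 192 a library. Gpc6 is also the longest gene of the 10, spanning 1054 kb of chromosome 14 (NCBIM37, the assembly also called mm9, 117324519 to 118378751).

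Gpc3 and Gpc4, which lie next to each other on chromosome X with start sites 448.7 kb apart, were barely detected. Glypican-3 restrains growth in the embryo, and loss of the human gene causes an overgrowth syndrome. Gpc3 had 6 counts in vehicle, 26 at 2 h and 15 at 12 h in replicate 1, and 0 counts in replicate 2 of all 3 groups. A count of 0 allows up to 3 counts, or 0.191 CPM for vehicle replicate 2, 0.151 CPM for TGFb2h replicate 2 and 0.154 CPM for TGFb12h replicate 2. The replicates thus disagree for Gpc3 in every group by more than this floor, and no comparison between groups was made. Gpc4 had 1 count in TGFb2h replicate 1 and 0 counts in the other 5 libraries. These floors, like all intervals on reads without molecular identifiers, cover counting error only.

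The secreted members differed in their time courses. Perlecan, the large proteoglycan of basement membranes, was highest at 2 h: Hspg2 was at 155 and 183 CPM in vehicle, 331 and 394 CPM at 2 h, and 262 and 261 CPM at 12 h. The groups did not overlap. Its log2FC was 1.10 (SE 0.134, 2.15-fold, edgeR adjusted p = 0.00328) at 2 h and 0.63 (SE 0.133, 1.55-fold, edgeR adjusted p = 0.00924) at 12 h, and it fell by 0.47 on the log2 scale between the times (SE 0.132, edgeR adjusted p = 0.0335). The 2 h call held in every setting tried. The 12 h call was lost without vehicle replicate 1 (edgeR adjusted p = 0.0649), TGFb12h replicate 1 (0.0601) or TGFb12h replicate 2 (0.0602), and the fall between the times was lost without TGFb2h replicate 2 (0.0993) or TGFb12h replicate 1 (0.147) or replicate 2 (0.152).

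Agrin, which organises the neuromuscular junction and is a basement membrane component in epithelia, was called at the later time. Agrn was at 410.0 and 354.5 CPM in vehicle, 442 and 392 CPM at 2 h, and 545 and 537 CPM at 12 h. The vehicle and 2 h libraries overlapped, and both 12 h libraries lay above them. The log2FC was 0.13 (SE 0.118, edgeR adjusted p = 0.527) at 2 h and 0.50 (SE 0.118, edgeR adjusted p = 0.0142) at 12 h, with a step between the times of 0.38 (SE 0.118, edgeR adjusted p = 0.0489). The 12 h call was lost without vehicle replicate 2 (0.0993), TGFb12h replicate 1 (0.0929) or TGFb12h replicate 2 (0.0864), and the step between the times was lost in 9 of 14 settings tried.

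Against the 2 h group, the 12 h group therefore had 3 of the 8 genes called higher (Sdc3, Gpc1 and Agrn) and 2 called lower (Gpc6 and Hspg2), where 34.1% of all tested genes were called, 15.2% higher and 18.9% lower. The count was 3 without TGFb2h replicate 2, 2 without TGFb12h replicate 1 and 1 without TGFb12h replicate 2 (31.3%, 14.6% and 15.1% of all tested genes). The step of Sdc3 was lost without TGFb12h replicate 1 (edgeR adjusted p = 0.0692) or replicate 2 (0.0935) and was 2.45 without TGFb2h replicate 2, and that of Gpc1 was at the threshold without TGFb12h replicate 2 (0.05001).

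Compared per length, as CPM per kb of merged exons, the order of the 10 genes changed in its middle. With vehicle it ran from Sdc4 (137 ± 30.4, SD, n = 2) and Sdc1 (133 ± 15.9) through Agrn (48.0 ± 4.93), Gpc1 (17.98 ± 2.80) and Hspg2 (11.8 ± 1.42) to Gpc6, Sdc3 and Sdc2, all below 1. Sdc4 and Sdc1 overlapped, as did Gpc6 with Sdc3 and Sdc3 with Sdc2. At 2 h Gpc1 (57.7 ± 8.05) had come level with Agrn (52.4 ± 4.37), with libraries that overlapped. At 12 h Gpc1 (109 ± 6.91) stood next below the leading syndecans, above Agrn (68.0 ± 0.669), and Sdc3 (15.1 ± 1.91) came next below Hspg2 (18.2 ± 0.0377). At that time every gene from Sdc4 (218 ± 9.77) down to Gpc6 (0.415 ± 0.0331) was apart from its neighbour in the order.

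Levels were also summed over each family. The 4 glypicans of the group, which leave out Gpc2, summed to 17.1 and 20.8 CPM per kb with vehicle. They summed to 53.6 and 64.4 at 2 h, and 104 and 114 at 12 h, with no overlap between groups. The 4 syndecans summed to 304 and 239 CPM per kb with vehicle, 429 and 311 at 2 h, and 425 and 413 at 12 h. The 2 h and 12 h libraries overlapped, and TGFb2h replicate 2 lay close to vehicle replicate 1. The sums were not tested.

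Within each family, the share of each gene was taken from the same level per length. Of the summed level of Gpc1, Gpc3, Gpc4 and Gpc6, Gpc1 made up 94.8% ± 1.81 (SD, n = 2) with vehicle. Its share was 97.8% ± 0.943 at 2 h and 99.5% ± 0.219 at 12 h. Gpc2, at a mean of 1.37 CPM in vehicle, 1.16 CPM at 2 h and 2.34 CPM at 12 h, was not part of this sum. The share of Gpc6 was 4.86% ± 1.27, 1.73% ± 0.273 and 0.382% ± 0.0539 in the same order, and per coding length in place of merged exons it was 11.7%, 4.36% and 0.983%. Sdc1 and Sdc4 held nearly all of the syndecan level, at 49.3% ± 2.49 and 50.0% ± 2.72 with vehicle, 50.9% ± 5.11 and 47.6% ± 5.98 at 2 h, and 44.2% ± 0.709 and 52.0% ± 1.28 at 12 h. Which of them led with vehicle depended on the length used, since per longest transcript Sdc1 held 53.1% and Sdc4 46.3%. Sdc3 went from 0.346% ± 0.202 to 1.28% ± 0.903 and then 3.61% ± 0.530, so that after its 16.9-fold rise it was still a small part of the family.

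**Figure D3:**
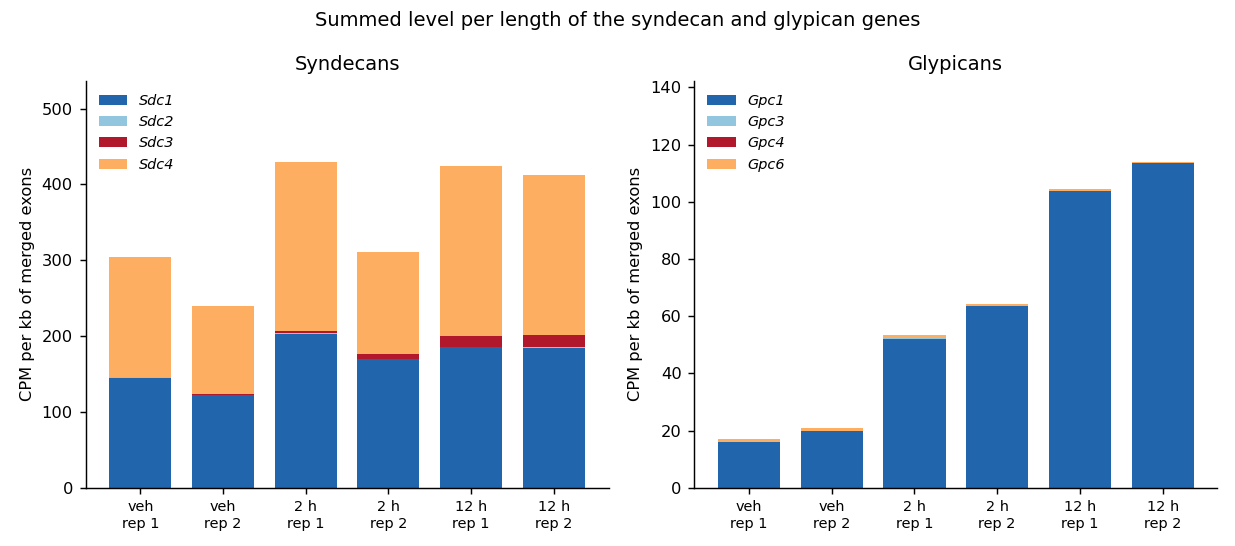
Summed level of the syndecans (left) and of the glypicans Gpc1, Gpc3, Gpc4 and Gpc6 (right) in each library. Levels are in CPM per kb of merged exons (vertical axes from 0), with each bar divided by gene. Glypican bars grow from 17.1 and 20.8 to 104 and 114 and are almost wholly Gpc1, and syndecan bars are divided nearly evenly between Sdc1 and Sdc4, with Sdc3 visible at 12 h.

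The nearest annotated genes on either side of the 10 proteoglycan genes were mostly too low to test, and none that was tested was called. Of 20 such places, 5 held a gene that passed the filter: Pum2 and Laptm4a beside Sdc1, Cpq beside Sdc2, Sys1 beside Sdc4, and 9430015G10Rik beside Agrn. By edgeR 0 of the 5 were called at either time, with lowest adjusted p-values of 0.0936 at 2 h and 0.259 at 12 h, beside calls in 15.2% and 43.3% of all tested genes. No neighbour of Sdc3, Gpc1, Gpc6 or Hspg2 was tested. These 3 genes of chromosome 4 lie far apart: Sdc3 at 130348452 to 130382234, Hspg2 at 137024634 to 137126545 and Agrn at 155539399 to 155571536 (NCBIM37).

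Genes with a time course close to those of Sdc3 and Gpc6 were looked for over the 6 libraries, by the root mean square difference in log2 CPM after each gene was set relative to its own vehicle mean. Among 11079 genes compared, Wnt7a was nearest to Sdc3 at a difference of 0.242, followed by Pkp1, a desmosomal plaque gene, at 0.269 and Abtb2 at 0.334. Wnt7a, which encodes a Wnt ligand, had a log2FC of 2.20 at 2 h and 4.01 at 12 h. Nearest to Gpc6 were Mindy1 at 0.0722, Hunk at 0.0740 and Sephs2 at 0.0932, with log2FC between −1.03 and −1.27 at 12 h.

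The genes that build, sulfate, trim and bind heparan sulfate were read from 13 lists, of which a pair holds the enzymes and core proteins of chondroitin and dermatan sulfate. Of 121 listed genes, 120 were in the table and 76 were tested. At 2 h, 11 of the 76 were called higher and 4 lower (19.7%, beside 15.2% of all tested genes), and at 12 h, 26 were called higher and 16 lower (55.3%, beside 43.3%). Without the chondroitin and dermatan sulfate lists, 8 of 63 tested genes were called higher and 3 lower at 2 h (17.5%), and 16 were called higher and 16 lower at 12 h (50.8%). The median log2FC of the 76 was 0.06 at 2 h and 0.04 at 12 h. These counts include genes that reached the filter only through, or with the help of, TGFβ libraries, which are named with their lists. Hpse, Fgfbp1 and Sgsh, among the lower calls at 12 h, entered in the same way through vehicle and 2 h libraries. The 2 h count of 15 was 9 with the vehicle and 2 h groups fitted alone, where 8.06% of all tested genes were called, and 7 when vehicle replicate 2 was left out, where 6.46% were called. It was 9 without vehicle replicate 1, TGFb12h replicate 1 or TGFb12h replicate 2, with 5.63%, 8.18% and 8.19% of all tested genes called. Genes named with an absolute log2FC under 1 were chosen after their values were seen.

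The linker sugar enzymes had 3 of 6 tested genes called higher and 1 lower at 12 h, where 43.3% of all tested genes were called, with a median log2FC of 0.43. The 4 calls became 2 without TGFb12h replicate 1. B4galt7, which adds the first galactose of the linker, was at 41.0 and 33.5 CPM in vehicle, 80.3 and 71.3 at 2 h, and 83.6 and 91.2 at 12 h. Its log2FC was 1.02 (SE 0.135) at 2 h and 1.23 (SE 0.136, edgeR adjusted p = 0.000650) at 12 h. Xylt2, which attaches the xylose that starts the linker, rose by 0.82 at 12 h, and the xylose phosphatase gene Pxylp1 fell by 0.93 on the log2 scale.

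Ext1, which forms with Ext2 the polymerase that extends the chain, had the largest 12 h change among the tested linker and polymerase genes. It was at 169.7 and 139.5 CPM in vehicle, 292 and 258 CPM at 2 h, and 847 and 842 CPM at 12 h, with no overlap between groups. The log2FC was 0.83 (SE 0.131, edgeR adjusted p = 0.00855) at 2 h and 2.45 (SE 0.137, edgeR adjusted p = 6.03e-05) at 12 h. Extl3, which adds the first glucosamine of the chain, rose by 1.08 at 12 h (SE 0.0978, edgeR adjusted p = 0.000300), and Extl2 fell by 0.59. In all, 2 of 4 tested polymerase genes were called higher and 1 lower at each time, beside calls in 15.2% (2 h) and 43.3% (12 h) of all tested genes. The 3 calls at 2 h became 1 with the vehicle and 2 h groups fitted alone or without vehicle replicate 1 or either TGFb12h library, and 0 by edgeR without vehicle replicate 2. At 2 h the Ext1 call was lost without vehicle replicate 2 (edgeR adjusted p = 0.0585).

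**Figure D4:**
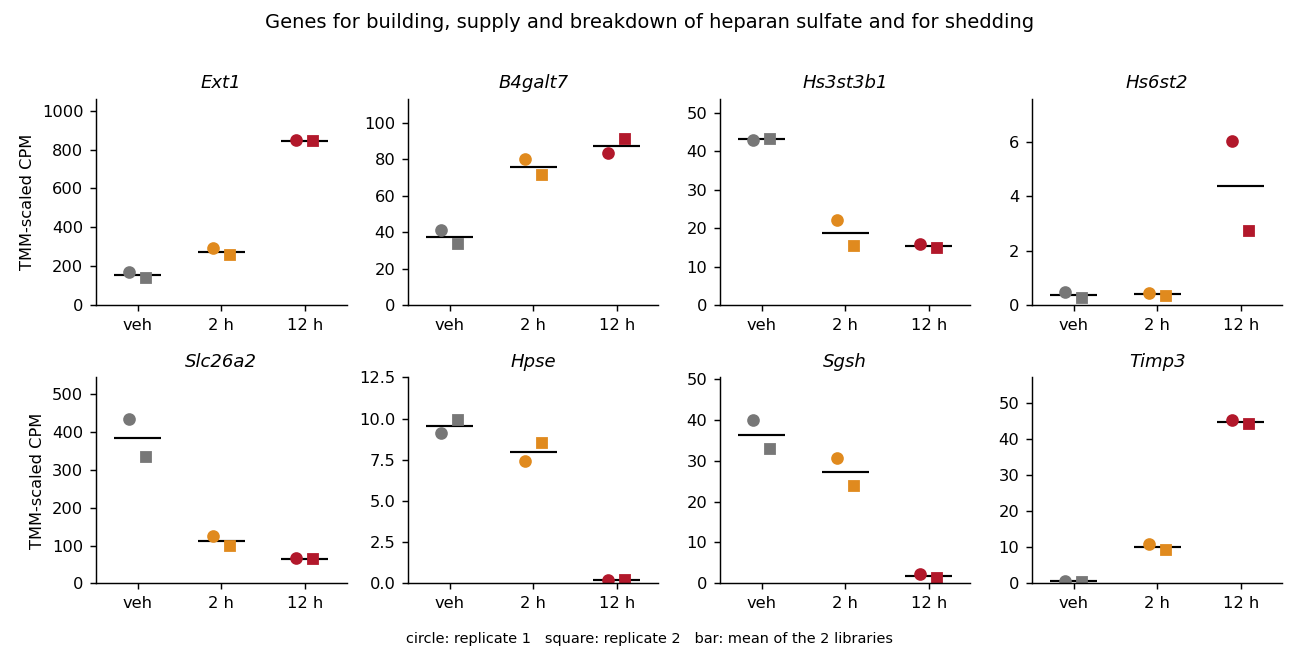
Level in each of the 6 libraries, in TMM-scaled CPM (vertical axes from 0, each with its own range), of 7 genes that build, supply, trim or break down heparan sulfate and of Timp3, from the shedding list; circles are replicate 1, squares replicate 2 and bars the mean. The 12 h libraries of Ext1, B4galt7, Hs6st2 and Timp3 lie above the vehicle libraries, and those of Hs3st3b1, Slc26a2, Hpse and Sgsh lie below them.

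Of the sulfation enzymes, 1 of 8 tested genes was called higher (Hs6st2) and 1 lower (Hs3st3b1) at 12 h, beside 21.8% and 21.5% of all tested genes, with a median log2FC of −0.01. Without Hs6st2, which reached the filter only through its 12 h libraries, 0 of 7 were called higher by edgeR. The count of 2 was 1 without TGFb12h replicate 1 or replicate 2. Both enzymes put sulfate on particular positions of the chain. Hs3st3b1, a 3-O-sulfotransferase, was at 43.1 and 43.2 CPM in vehicle, 22.2 and 15.4 CPM at 2 h, and 15.9 and 14.8 CPM at 12 h. Its log2FC was −1.20 (SE 0.186, edgeR adjusted p = 0.00816) at 2 h and −1.49 (SE 0.188, edgeR adjusted p = 0.00112) at 12 h. Hs6st2, a 6-O-sulfotransferase, had 8 and 4 counts with vehicle, 9 and 7 at 2 h, and 138 and 53 at 12 h. A gene that enters in this way had to differ, so its counts are given with no test. At 2 h Ndst1 and Hs2st1 were also called higher, by 0.43 and 0.67, and both calls were lost with the vehicle and 2 h groups fitted alone (edgeR adjusted p = 0.105 and 0.0731). The untested Hs3st3a1, which was named after its counts were seen, had 0 and 1 counts with vehicle, 0 and 3 at 2 h, and 29 and 16 at 12 h.

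Among the genes for sulfate supply, Slc26a2, a sulfate transporter of the cell surface, was at 435 and 333 CPM in vehicle, 126 and 99.3 CPM at 2 h, and 65.9 and 65.8 CPM at 12 h. It fell by 1.77 on the log2 scale at 2 h (SE 0.173, edgeR adjusted p = 0.00155) and fell by 2.54 at 12 h (SE 0.179, edgeR adjusted p = 0.000132). Ugp2, which makes UDP-glucose, fell by 1.04 at 12 h (SE 0.245, edgeR adjusted p = 0.0142), a call lost without vehicle replicate 1 (0.0704), TGFb12h replicate 1 (0.0720) or TGFb12h replicate 2 (0.110). Of the 9 genes for sulfate donors and nucleotide sugars, 1 was called higher and 3 lower at 12 h, where 43.3% of all tested genes were called. The 4 calls became 1 without vehicle replicate 1, TGFb12h replicate 1 or TGFb12h replicate 2, and 2 without vehicle replicate 2.

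Genes that cut or degrade the chain included large falls. Hpse, the heparanase that cleaves heparan sulfate outside cells and in lysosomes, was at 9.12 and 9.93 CPM in vehicle, 7.43 and 8.52 CPM at 2 h, and 0.218 and 0.205 CPM at 12 h. The 12 h values rest on 5 and 4 counts. Its log2FC was −0.26 (SE 0.187, edgeR adjusted p = 0.411) at 2 h. Both 12 h libraries were below 2 CPM, so Hpse reached the filter only through the vehicle and 2 h libraries. Its log2FC of −5.45 at 12 h is therefore given with no test. Sulf1, an extracellular sulfatase gene, had 0 counts in all libraries, and Sulf2 had a log2FC of 0.63 (SE 0.320, edgeR adjusted p = 0.158) at 12 h. Sgsh, the lysosomal sulfamidase, was at 40.0 and 32.7 CPM in vehicle, 30.7 and 23.7 CPM at 2 h, and 2.22 and 1.28 CPM at 12 h. Only replicate 1 of its 12 h libraries reached 2 CPM, so Sgsh needed the other groups to enter. Its fall of 4.36 on the log2 scale at 12 h is given with no test. Of the 8 lysosomal genes, 0 were called at 2 h by edgeR and 2 were called lower at 12 h, Sgsh among them, where 15.2% and 43.3% of all tested genes were called. The 12 h count was 5 with total counts in place of TMM, and 1 without either vehicle library or either TGFb12h library.

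Among genes around shedding of the surface proteoglycans, 2 of the 4 tested were called higher at both times, beside 9.91% of all tested genes at 2 h and 21.8% at 12 h. One of the 2 is Timp3, which reached the filter only through TGFβ libraries and is given with no test, and 1 of 3 was called higher without it. Timp3, an inhibitor of the proteases that release syndecans from the membrane, had 13 and 7 counts with vehicle, 218 and 186 at 2 h, and 1041 and 861 at 12 h. Mmp14, a membrane metalloprotease, rose by 0.87 at 2 h (SE 0.121, edgeR adjusted p = 0.00532) and 1.72 at 12 h (SE 0.123, edgeR adjusted p = 0.000139). Adam17, a sheddase, fell by 0.69 at 12 h.

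**Figure D5:**
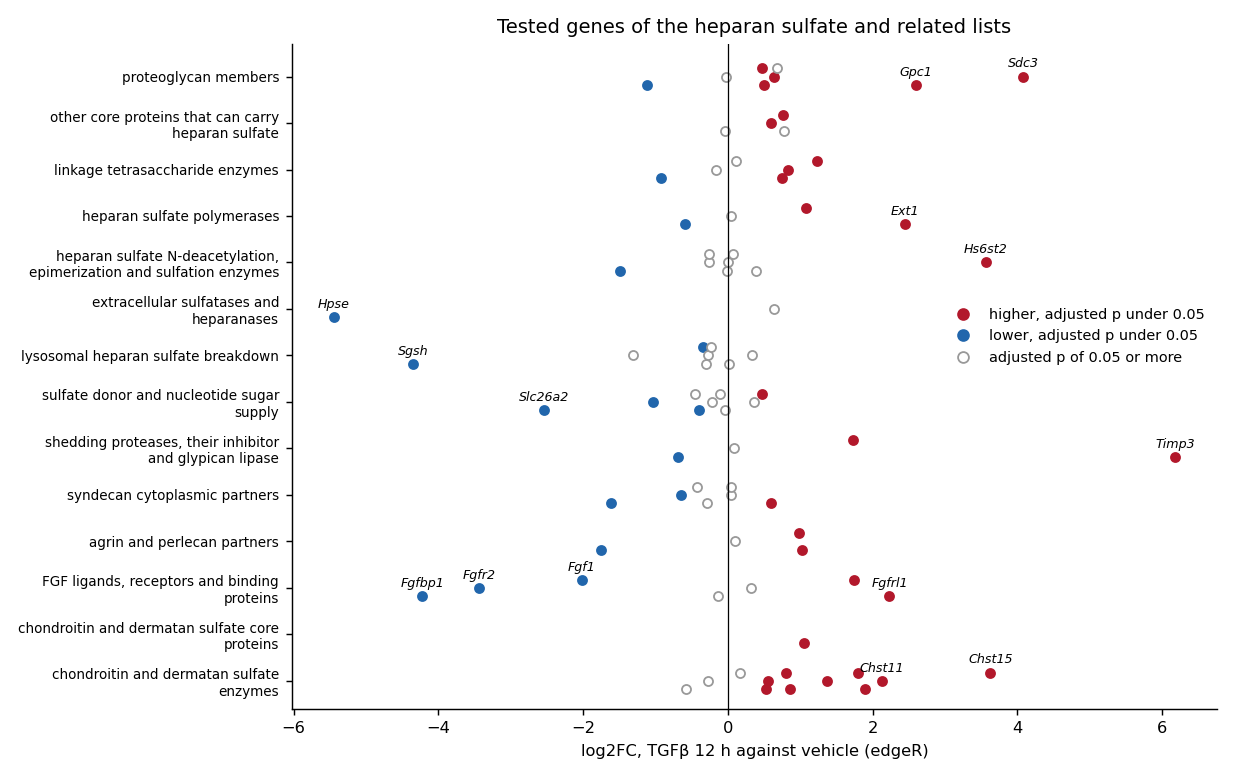
log2FC at 12 h against vehicle (horizontal axis) of every tested gene in the proteoglycan group and the 13 lists (rows); red and blue points have an edgeR adjusted p under 0.05 and are higher or lower, and open points do not pass. Hpse lies farthest to the left, at −5.45. Of the chondroitin and dermatan sulfate enzymes, 9 of 12 points are red, Chst15 among them, and 0 blue. Hs6st2, Timp3, Gpc2 and Chst15 are drawn although they reached the filter only through TGFβ libraries. Hpse and Fgfbp1 are drawn although they reached it only through vehicle and 2 h libraries.

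Of 7 genes for proteins that bind the cytoplasmic tails of syndecans, 0 were called at 2 h by edgeR and 1 was higher and 2 lower at 12 h, beside 15.2% and 43.3% of all tested genes called. Ezr, which encodes the membrane to actin linker ezrin, fell by 1.62 on the log2 scale (SE 0.136, edgeR adjusted p = 0.000236), from 794 and 861 CPM with vehicle to 240.05 and 299 CPM. Among 4 tested partners of agrin and perlecan, the collagen IV genes Col4a1 and Col4a2 rose by 0.98 and 1.03 at 12 h, and the nidogen gene Nid2 fell by 1.76 (SE 0.361, edgeR adjusted p = 0.00825), so that 3 of 4 were called, beside 43.3% of all tested genes. Its change was −1.31 without TGFb12h replicate 1 and −2.41 without TGFb12h replicate 2, both called. Lrp4, the agrin receptor, was below the filter, which used CPM without TMM factors, and was named after its counts were seen. It had 0 and 1 counts with vehicle, 16 and 12 at 2 h, and 47 and 43 at 12 h.

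FGFs signal with heparan sulfate as co-receptor, and 5 of 7 tested genes of this list were called at 12 h, 2 higher and 3 lower, where 43.3% of all tested genes were called, 21.8% higher and 21.5% lower. One of the 2 higher genes is the receptor gene Fgfr1, which had 39 and 24 counts in vehicle, 53 and 113 at 2 h, and 141 and 130 at 12 h. Only 1 vehicle library of Fgfr1 reached 2 CPM, so it needed TGFβ libraries to enter and is given with no test. Without it, 1 of 6 was called higher and 3 lower. Fgf1 was at 101 and 88.6 CPM in vehicle, 106 and 78.3 CPM at 2 h, and 21.9 and 24.8 CPM at 12 h, a log2FC of −2.02 (SE 0.173, edgeR adjusted p = 0.000250) at 12 h. Fgfr2, whose epithelial form binds FGFs from the stroma, fell by 3.44 on the log2 scale at 12 h (SE 0.167, edgeR adjusted p = 4.68e-05). Fgfbp1, a carrier that releases FGFs from the matrix, was at 12.3 and 6.43 CPM in vehicle and at 0.479 and 0.513 CPM at 12 h. It reached the filter only through vehicle and 2 h libraries, so its fall of 4.23 is given with no test. Fgfbp1 is among the 3 genes called lower. Fgfrl1, a receptor without a kinase domain, rose by 2.00 at 2 h (SE 0.247, edgeR adjusted p = 0.00346) and 2.23 at 12 h (SE 0.247, edgeR adjusted p = 0.000659).

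Of the other carriers of heparan sulfate, 0 of 4 tested genes were called at 2 h by edgeR (1 by DESeq2 and 1 without TGFb2h replicate 2) and 2 were called higher at 12 h, beside 15.2% of all tested genes called at 2 h and 21.8% called higher at 12 h. The 12 h count was 1 without vehicle replicate 2 or either TGFb12h library. Gpc2, a glypican among the 4, reached the filter only through TGFβ libraries and was not called. Col18a1, the collagen XVIII core protein, rose by 0.76 (SE 0.135, edgeR adjusted p = 0.00476), and Cd44, of which some splice forms carry the chain, rose by 0.60 (SE 0.132, edgeR adjusted p = 0.0110). Tgfbr3, the TGFβ co-receptor betaglycan, was below the filter, with 2 to 12 counts a library.

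The chain of the neighbouring class, chondroitin and dermatan sulfate, is built on the same linker and was read for comparison. At 12 h, 9 of 12 tested enzymes were called higher and 0 lower, with a median log2FC of 0.83, where 21.8% of all tested genes were called higher. Without Chst15, which reached the filter only through TGFβ libraries, it was 8 of 11. At 2 h, 3 of the 12 were called higher, Chst15 among them, and 1 lower, beside 9.91% and 5.25% of all tested genes. The lower gene was Csgalnact2, with a log2FC of −0.80 (edgeR adjusted p = 0.0410). At 12 h its log2FC was −0.58 (edgeR adjusted p = 0.0520), which was not called. Chsy1, a chondroitin polymerase, rose by 0.96 at 2 h and 1.89 at 12 h (SE 0.142, edgeR adjusted p = 0.000163), and its partner Chpf rose by 1.80 at 12 h (SE 0.159, edgeR adjusted p = 0.000279). The 4-O-sulfotransferase Chst11 rose by 2.13 at 12 h (SE 0.222, edgeR adjusted p = 0.000521). Chst15, which adds a further sulfate to chondroitin, had 11 and 10 counts with vehicle, 108 and 160 at 2 h, and 162 and 175 at 12 h, and is given with no test. Of 10 core protein genes of this class, only the versican gene Vcan was tested, and it rose by 1.05 at 12 h (SE 0.164, edgeR adjusted p = 0.00271).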

How the data were processed

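According to the study's methods and the submitters' processing notes, the authors trimmed the 50-base single-end reads, aligned them to mm9 with subjunc, kept unique hits, removed duplicate reads with SAMtools 0.1.19 and counted them with strand over UCSC exons with featureCounts. Removing single-end duplicates can limit how many reads a position gives and so lower the level of abundant genes. Here Sdc4 had 13136 counts in TGFb12h replicate 1 over 2547 bases of merged exons, more counts than bases. How far duplicates were removed was not tested. The deposited values are raw counts per gene, with no normalization.

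Counts were tested here with edgeR 4.0.16 in R 4.3.3 (quasi-likelihood F test, 2-sided, TMM factors of 0.961 to 1.07, 1 fit of 3 groups), on genes reaching 2 CPM in 2 or more libraries. For this filter, CPM were counts over the library total, without TMM factors. Adjusted p-values are Benjamini-Hochberg values over the 11080 genes of a contrast, and 0.05 was the threshold. The SE is the absolute log2FC divided by the square root of F. Levels are TMM-scaled CPM. The likeness measure added 0.25 CPM before the log2. Named list genes are those with an absolute log2FC above 1 in a call at either time, at most 4 a list, plus those stated to be chosen after their values were seen. The 10 genes and the lists were chosen with earlier results of these data known. The mean squared difference between replicates was 16.9 to 52.8 times that of counting error, and they were counted as separate samples. P-values measure the spread between these libraries. Alternatives were DESeq2 1.42.0, limma-voom (limma 3.58.1), other scaling, other filters, fewer groups, the replicate number and leaving out each library. Positions are from GENCODE vM1 on NCBIM37, joined in Python 3.11.15 by symbol (18958 genes) or synonym (1676), and 606 genes stayed unmatched.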

Additional observations from a re-analysis of the deposited data

Results flagged for a closer look

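In 5 of the 8 tested genes the effect of TGFβ at 12 h differed from that at 2 h by a test of the difference itself, the edgeR contrast of both TGFβ groups, where 34.1% of all tested genes were called. The count was 3 without TGFb2h replicate 2, 2 without TGFb12h replicate 1 and 1 without TGFb12h replicate 2 (31.3%, 14.6% and 15.1% of all tested genes), and the Agrn difference was lost in 9 of 14 settings tried. The log2FC between the times was 1.79 for Sdc3, 0.91 for Gpc1 and 0.38 for Agrn, which were higher at 12 h in both libraries than in either 2 h library. It was −1.28 for Gpc6 and −0.47 for Hspg2, which were lower at 12 h in both libraries. The 12 h cells were also 10 h longer without serum and insulin, which cannot be told apart from the longer time with TGFβ.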

How the results depend on the processing

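The alternatives were 2 other scalings, DESeq2, limma-voom, 2 other filters, the replicate number as a block, a fit of only the 2 groups compared, and leaving out each library. Where one sample is left in a group, it is assumed to vary like the other groups. The number of the 8 genes called lay between 2 and 4 at 2 h, 3 and 7 at 12 h and 1 and 6 between the times over the settings that left out a library, and calls in the lists lay between 7 and 19 at 2 h and 30 and 47 at 12 h. Among the other settings, the list count at 2 h moved to 26 with the replicate block and 9 with only 2 groups. In these settings 29.1% and 8.06% of all tested genes were called. The replicate numbers mark no shared culture or day in the labels, and only 2 numbers exist, so pairing was not assumed, and whether the numbers mark paired cultures was not settled. Deviations of same-numbered libraries correlated at 0.708 (vehicle and 2 h), 0.263 (vehicle and 12 h) and 0.392 (2 h and 12 h) over genes, and the block raised all calls at 2 h from 1680 to 3222. With the block, Sdc1 at 2 h (adjusted p = 0.00792) and Sdc4 at 12 h (0.00224) were called too. All calls at 2 h were 893 with only 2 groups, and lay between 618 and 2196 at 2 h, 2822 and 5410 at 12 h, and 1605 and 3816 between the times when a library was left out. Total counts in place of TMM put the median log2FC of all genes at −0.12 at 2 h and −0.11 at 12 h, and split all calls into 854 higher and 975 lower at 2 h (1098 and 582 with TMM) and 1830 and 3047 at 12 h (2414 and 2385).

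Signs turned only in changes that were not called. With one library left out, the log2FC at 2 h lay between −0.035 and 0.70 for Sdc4, −0.22 and 0.65 for Hs6st2 and −0.29 and 0.16 for Fgf1. For Sdc2 at 12 h it lay between −0.28 and 0.18. Between the times it lay between −0.14 and 0.13 for Sdc1, −0.0033 and 0.94 for Sdc2, −0.034 and 0.69 for Sdc4, and −0.010 and 0.55 for Chst15. The cause was not tested. Shares within families depend on the length used, by construction. Per longest transcript, Sdc1 held 53.1% with vehicle and 47.7% at 12 h, Sdc2 0.247% with vehicle, Sdc4 46.3% with vehicle and 48.2% at 12 h, Gpc1 92.9% with vehicle, and Gpc6 6.65%, 2.40% and 0.533% with vehicle, at 2 h and at 12 h. Per coding length, Sdc1 held 42.9% at 12 h, Sdc2 0.361%, 0.191% and 0.229%, Gpc1 88.1%, 95.3% and 98.9%, and Gpc6 11.7%, 4.36% and 0.983% in the same order of groups. Counts are lowest for Sdc2, Gpc3 and Gpc4, with at most 55 counts a library.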

Other observations

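Gpc3 was counted in replicate 1 of all 3 groups (6, 26 and 15 counts) and at 0 in replicate 2 of all 3. Over the whole table, it is the single gene with at least 5 counts in each replicate 1 library and 0 in each replicate 2 library. The opposite pattern was met by 2 genes, the beta-globin genes Hbb-b1, with 10, 40 and 13 counts in replicate 2 of vehicle, 2 h and 12 h, and Hbb-bs, with 20, 66 and 47 counts. The minimum of 5 counts was chosen after these values were seen. Why the replicates differ in these genes was not tested.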
